A study of Mus musculus with 6 samples.

Results

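Expression of 37 cell cycle and DNA replication genes was compared between mouse melanomas that grew from ATM knockout cells and from vector control cells. The 37 genes were taken by gene symbol from a list of cyclins, replication factors, mitotic regulators and proliferation markers. Each symbol matched 1 of the 55536 genes in the count files, and all 37 passed the filter on low counts, which 15696 genes passed. The tumors came from B16 cells, a melanoma line of the C57BL/6 mouse. About 100000 cells were placed under the skin of C57BL/6J mice and the tumors were taken on day 13. There were 3 tumors of vector control cells and 3 of ATM knockout cells, and each gave 1 library of total tumor RNA. The labels do not give the sex or age of the mice, how ATM was disrupted, or if the knockout line was clonal or pooled. They also do not tie tumors to individual mice, so p-values measure the spread between these 6 tumors. Genotype cannot be told apart from the cell population that carries it.

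A dividing cell passes through G1, in which D-type and E-type cyclins drive entry into the cycle. In S phase the genome is copied from origins that were licensed by loading of the MCM helicase, and in mitosis the copies are separated on the spindle. The factor E2F1 drives transcription of many genes needed for S phase, and FOXM1 together with the MuvB complex drives many genes needed for mitosis. ATM, a protein kinase activated by breaks in both DNA strands, can halt this cycle when DNA is damaged. Tumors hold host cells as well as melanoma cells, and fewer cells of a type and less RNA per cell cannot be told apart in these libraries.

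Libraries held 22101124 to 29037715 counts on genes. Summed levels of 9 melanocyte lineage markers were 19634 to 28203 CPM in control tumors and 19962 to 20183 CPM in knockout tumors, and none of the 9 was at 0 in any tumor. CPM are counts scaled to the same library total, with the totals adjusted by TMM factors. Levels of 8 skeletal muscle markers ranged from 27.5 to 7652 CPM in control and from 632 to 7292 CPM in knockout tumors, and 7 fibroblast markers from 458 to 3109 and from 1447 to 1671 CPM. Summed levels of 9 T cell markers nearly met, at 41.9 to 59.4 CPM in control and 59.6 to 117 CPM in knockout tumors. Those of 7 endothelial markers did not overlap, at 180 to 306 and 144 to 177 CPM. The other lists of host cell markers overlapped between the groups. Among the melanocyte markers, Dct did not overlap (7106 to 10411 and 5023 to 5151 CPM), while Tyr, Tyrp1, Mlana and Pmel did. Of all single genes tested, 29.7% did not overlap between the groups. The part of the marker differences in the fold changes below was not tested. Atm was read at 2508, 2346 and 2306 counts in control tumors 1, 2 and 3 and at 2371, 3692 and 3132 counts in knockout tumors 1, 2 and 3 (log2 fold change 0.10 ± 0.13, SE). Such counts also take in host cells and transcripts without a working protein, so they do not check the labels. Levels here and below are CPM scaled by TMM factors, and log2 fold changes are knockout minus control with SE. Adjusted p-values are Benjamini-Hochberg values of the edgeR quasi-likelihood test over the 15696 genes, with a threshold of 0.05.

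Of the 37 genes, 1 changed in the edgeR test. Cdt1, which loads the MCM helicase onto origins, fell, and none rose. Over all genes tested, 2.75% were called lower and 2.21% higher, so a single call among 37 is a share near that of genes at large. Over all genes 347 were called higher and 431 lower, a split that turned to 504 and 356 with library size as the only scaling. The 37 held 7 higher and 5 lower genes whose unadjusted p was below 0.05, where 10.6% and 12.3% of all genes were. The tumors of the 2 groups did not overlap for 6 higher and 4 lower of the 37 genes, where 14.3% and 15.4% of all genes did not. DESeq2 called 3 of the 37 higher (Ccne1, Aurka and Nusap1) and 2 lower (Cdt1 and Mcm5), where it called 5.86% and 7.33% of all genes, and limma-voom called Cdt1 alone, where it called 4.38% of all genes, 1.97% higher and 2.41% lower. Fold changes lay on both sides of 0, with 17 above and 20 below and a median of -0.04, beside a median of -0.01 over all genes tested.

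The differences were small as well as mostly uncalled. The 95% interval of the log2 fold change lay within 2-fold in both directions for 36 of the 37 genes, and within 1.5-fold for 31. Cdt1 was the gene whose interval crossed the 2-fold line. Wider than 1.5-fold besides Cdt1 were the intervals of Ccne1, Mcm5, Gins1, E2f1 and Aurka. The SE of the 37 fold changes had a median of 0.11, against 0.10 over the 9924 tested genes whose mean reached 10 CPM. Levels of the 37 averaged from 15.2 CPM for Gins1 to 660.0 CPM for Top2a.

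**Figure D1:**
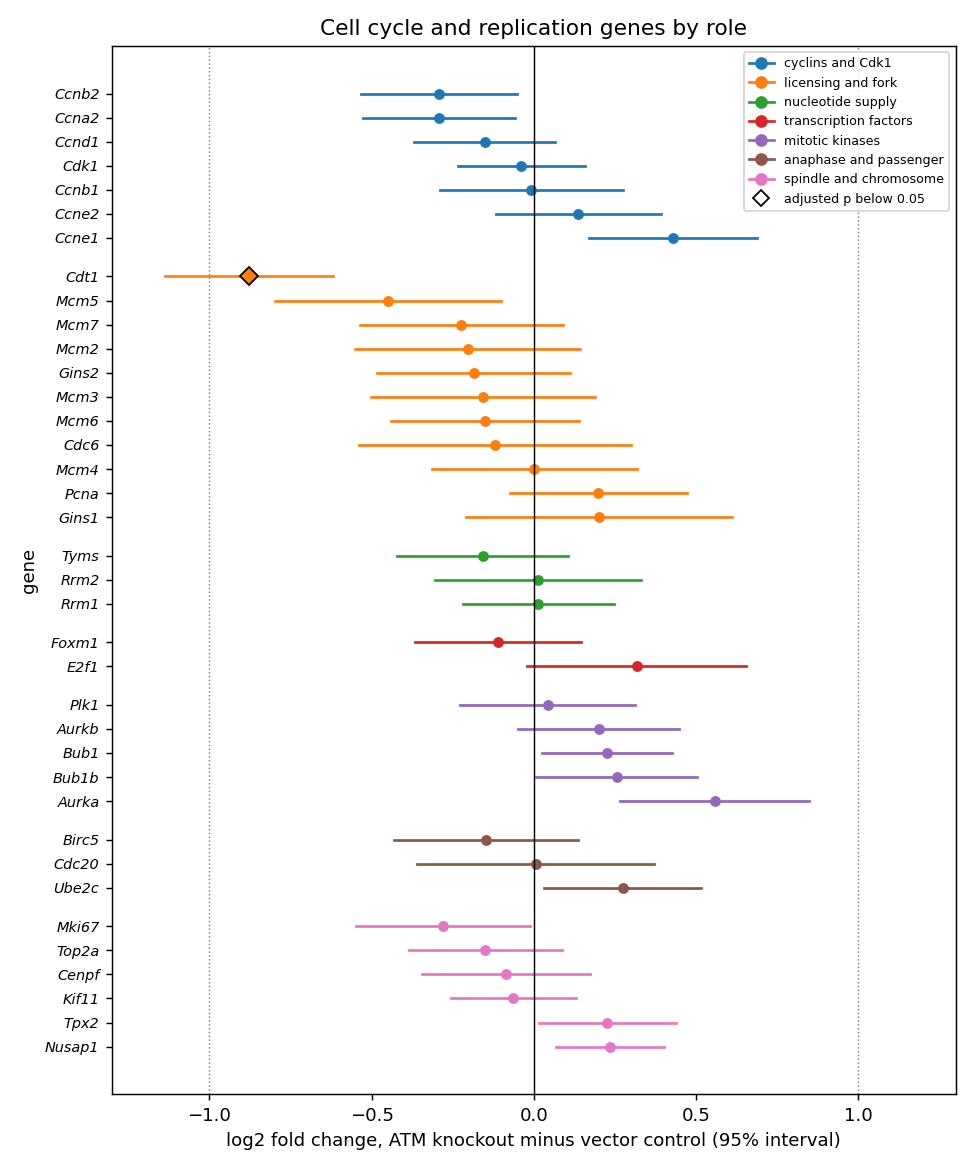
Log2 fold change (knockout minus control, x axis) of each of the 37 genes (y axis), with its 95% interval as a bar and colors for the 7 role groups. Dotted lines mark 2-fold, and the diamond marks Cdt1, at -0.88, the gene with an adjusted p below 0.05.

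The promoters of these genes were searched for motifs known from cell cycle genes. Windows of 300 bases, 250 before and 50 after the start, were taken from RefSeq (GRCm38.p6) and matched 28 of the 37 genes by symbol. An E2F word (TTTCCCGC, TTTCGCGC, TTTGCCGC or TTTGGCGC, on either strand) stood in the windows of 6 of 11 replication genes (Cdc6, Cdt1, Mcm3, Mcm5, Mcm6 and Mcm7) and of none of 12 mitotic genes, beside 2.27% of all 32851 windows. The cell cycle homology region word (TTTGAA or TTCGAA, either strand), which the MuvB complex binds, stood in 10 of 12 mitotic and 2 of 11 replication genes, beside 19.2% of all windows. The CCAAT box, on either strand, stood in 10 of 12 and 8 of 11, beside 37.4%. E2F words can overlap each other on the opposite strand, as in Mcm5 and Mcm6, and the window of Cdk1 held an E2F word, the homology region word and the CCAAT box. The sequences below show these layouts for Cdt1, for the MCM genes with the lowest fold change and the most E2F words, for Cdk1 and for 2 mitotic or proliferation genes. Capitals mark the motif words. The E2F word of Cdt1 begins at base 33 after the start, so only 30 bases around it are shown. The others show the part of the 250 bases before the start that lies in no annotated exon.
Cdt1, chr8:122568036-122568065, plus strand: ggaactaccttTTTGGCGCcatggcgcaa
Mcm5, chr8:75109259-75109508, plus strand: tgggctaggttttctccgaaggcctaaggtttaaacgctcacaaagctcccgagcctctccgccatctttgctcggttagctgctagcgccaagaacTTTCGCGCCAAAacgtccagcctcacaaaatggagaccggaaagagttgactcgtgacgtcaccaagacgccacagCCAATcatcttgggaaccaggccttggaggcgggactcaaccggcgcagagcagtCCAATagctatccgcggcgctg
Mcm6, chr1:128359706-128359955, minus strand: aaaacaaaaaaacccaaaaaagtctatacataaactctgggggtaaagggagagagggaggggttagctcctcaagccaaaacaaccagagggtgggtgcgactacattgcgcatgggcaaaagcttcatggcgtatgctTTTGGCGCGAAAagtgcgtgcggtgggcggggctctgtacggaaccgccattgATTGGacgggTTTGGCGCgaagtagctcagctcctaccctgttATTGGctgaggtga
Cdk1, chr10:69352939-69353162, minus strand: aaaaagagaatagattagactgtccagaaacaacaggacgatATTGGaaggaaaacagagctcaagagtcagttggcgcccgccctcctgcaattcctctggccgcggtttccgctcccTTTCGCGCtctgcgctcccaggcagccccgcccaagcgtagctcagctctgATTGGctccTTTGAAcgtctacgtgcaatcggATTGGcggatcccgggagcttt
Cdc20, chr4:118437353-118437593, minus strand: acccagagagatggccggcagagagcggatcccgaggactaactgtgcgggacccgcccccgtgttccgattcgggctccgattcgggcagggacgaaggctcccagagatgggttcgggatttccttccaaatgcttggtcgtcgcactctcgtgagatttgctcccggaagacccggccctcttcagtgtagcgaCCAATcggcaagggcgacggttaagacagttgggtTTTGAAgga
Mki67, chr7:135716380-135716629, minus strand: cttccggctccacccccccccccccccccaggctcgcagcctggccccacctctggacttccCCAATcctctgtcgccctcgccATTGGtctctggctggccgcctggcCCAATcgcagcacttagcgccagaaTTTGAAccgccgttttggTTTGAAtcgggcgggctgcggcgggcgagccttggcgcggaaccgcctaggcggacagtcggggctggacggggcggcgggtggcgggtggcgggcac

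Among the replication licensing and fork genes, Cdt1 fell and the other 10 did not pass. Cdt1 (chromosome 8, 122568015 to 122573554, GRCm38) was at 84.1, 95.1 and 87.5 CPM in control tumors 1, 2 and 3 and at 49.6, 53.9 and 41.7 CPM in knockout tumors 1, 2 and 3. All 3 knockout tumors lay far below all 3 control tumors. The log2 fold change was -0.88 ± 0.11 (adjusted p = 0.018), a level 1.84-fold lower in knockout tumors. Without control tumor 2, control tumor 3, knockout tumor 1 or knockout tumor 2 the call ended (edgeR adjusted p = 0.0966, 0.0571, 0.119 and 0.0634), with fold changes of -0.80, -0.88, -0.895 and -0.96. Over every alternative the adjusted p of Cdt1 ranged from 8.95e-10 to 0.119. Within its 10 Mb of chromosome 8, between 120 and 130 Mb, the median over 101 other tested genes was -0.34. The fold change of Cdt1 was lower than that median. The SE of Cdt1 does not measure how far single genes scatter around the median, so this difference was not tested. Gins2, at 120578633 on the same chromosome, had a fold change of -0.19 ± 0.12.

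Of the 6 subunits of the MCM2-7 helicase, the motor that unwinds DNA at the fork, 5 had fold changes below 0, with a median of -0.18. None passed the edgeR test (1 lower at an unadjusted p below 0.05, 1 lower by DESeq2, none by limma-voom). Mcm2, the subunit with the highest level per length, was at 359, 449 and 375 CPM in control tumors and at 352, 392 and 283 CPM in knockout tumors. Knockout tumor 3 was lowest and control tumor 2 highest, and the groups overlapped (-0.20 ± 0.14). Mcm5, whose E2F words are shown above, ranged from 170 to 222 CPM in control tumors and from 120 to 160 CPM in knockout tumors, and its groups did not overlap (-0.45 ± 0.15, adjusted p = 0.133 and 0.0323 to 0.379 over the alternatives). Mcm5 lies on chromosome 8, where 121 other tested genes between 70 and 80 Mb had a median of -0.24. Mcm3 (-0.16), Mcm6 (-0.15), Mcm7 (-0.22) and Mcm4 (0.00) overlapped between groups. Per kilobase of exon, the order in control tumors was Mcm2 (56.7 RPKM, the CPM per kilobase), Mcm6 (54.5), Mcm5 (49.6), Mcm3 (49.0), Mcm4 (35.2) and Mcm7 (26.9). In knockout tumors Mcm2 (49.2) and Mcm6 (49.1) still led, Mcm3 (44.0) came before Mcm5 (36.3) and Mcm4 (35.2), and Mcm7 (23.0) was again last. Neighbors at 49.0 and 49.6 RPKM, or at 49.1 and 49.2, do not differ beyond the spread of either subunit. The length used is that of all annotated exons of a gene merged, which can exceed the length of its main mRNA. The order between subunits therefore also depends on the annotation.

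Cdc6, Gins1, Gins2 and Pcna passed in none of edgeR, DESeq2 and limma-voom, and none of the 4 had an unadjusted p below 0.05. Cdc6, which recruits CDT1 and the helicase to origins, had a mean of 33.9 ± 4.79 CPM in control tumors and of 31.2 ± 6.49 CPM in knockout tumors (SD, n = 3 per group, as for all means below). Gins1 and Gins2 encode subunits of GINS, a complex that activates the helicase. Gins1 was at 14.2 ± 1.09 and 16.3 ± 3.31 CPM, and Gins2 at 21.5 ± 1.77 and 18.9 ± 2.34 CPM. Pcna, the sliding clamp of the replication fork, was at 85.0 ± 7.18 and 97.6 ± 12.3 CPM (0.20 ± 0.11, adjusted p = 0.365 in edgeR). All 4 overlapped between the groups.

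The enzymes that supply DNA building blocks showed no called change in edgeR, DESeq2 or limma-voom, and none had an unadjusted p below 0.05. Rrm2, the regulatory subunit of ribonucleotide reductase and the gene with the highest level per length of the 37, was at 229, 240 and 233 CPM in control tumors and at 264, 256 and 188 CPM in knockout tumors. Knockout tumors 1 and 2 lay above the control range and knockout tumor 3 below it (0.01 ± 0.13). Rrm1, the catalytic subunit, was at 281 ± 16.4 and 284 ± 29.0 CPM. Tyms, which makes thymidylate, was at 47.1, 55.8 and 51.2 CPM in control tumors and at 48.9, 49.3 and 40.0 CPM in knockout tumors (-0.16 ± 0.11). Its groups overlapped except for the low knockout tumor 3.

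The cyclins took different directions, and none of the 7 genes for cyclins and CDK1 passed the edgeR test (1 higher and 2 lower by unadjusted p, 1 higher by DESeq2, none by limma-voom). Ccne1, the E-type cyclin that activates CDK2 at the start of S phase, was at 32.8, 27.8 and 29.0 CPM in control tumors and at 44.2, 40.6 and 35.9 CPM in knockout tumors. All knockout tumors lay above all control tumors (0.43 ± 0.11, adjusted p = 0.0761). That p ranged from 0.0146 to 0.251 over the alternatives, and Ccne1 passed with DESeq2, without a filter on low counts (0.045) and without control tumor 1 (0.0463). Its paralog Ccne2 was at 23.9 ± 1.98 and 26.3 ± 2.38 CPM. Ccnd1, the D-type cyclin that answers growth signals, was at 264, 226 and 254 CPM in control tumors and at 205, 234 and 231 CPM in knockout tumors (-0.15 ± 0.09). Its groups overlapped, while the 82 other tested genes in its 10 Mb of chromosome 7, between 140 and 150 Mb, had a median of 0.39. Ccna2 and Ccnb2, cyclins of S phase and mitosis, were lower without overlap but did not pass, at 157 ± 8.65 and 129 ± 14.1 CPM (-0.29 ± 0.10, adjusted p = 0.143) and at 81.6 ± 2.90 and 66.6 ± 8.16 CPM (-0.29 ± 0.10, adjusted p = 0.148). Ccnb1, the main mitotic cyclin, was at 40.7 ± 3.12 and 40.5 ± 5.39 CPM, and its kinase Cdk1 at 112 ± 4.09 and 109 ± 9.11 CPM.

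Neither transcription factor gene passed in edgeR, DESeq2 or limma-voom, and neither had an unadjusted p below 0.05. E2f1 was at 42.3, 48.7 and 43.4 CPM in control tumors and at 57.3, 65.0 and 45.1 CPM in knockout tumors. Knockout tumors 1 and 2 lay above the control range and knockout tumor 3 within it (0.32 ± 0.14, adjusted p = 0.243 in edgeR). Foxm1 was at 158, 168 and 161 CPM in control tumors and at 162, 161 and 127 CPM in knockout tumors (-0.11 ± 0.11). Only knockout tumor 3 lay outside the control range of Foxm1.

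All 5 mitotic kinase genes had fold changes above 0, and none passed the edgeR test (3 higher at an unadjusted p below 0.05, 1 higher by DESeq2, none by limma-voom). Aurka, the Aurora kinase of the centrosome and spindle poles, was at 45.2, 49.3 and 45.2 CPM in control tumors and at 74.1, 75.1 and 56.5 CPM in knockout tumors. The groups did not overlap (0.56 ± 0.12, adjusted p = 0.0541), and Aurka had the highest fold change of the 37. Its adjusted p ranged from 0.00194 to 0.206 over the alternatives. It passed with DESeq2, with library size as the only scaling (0.0494), without a filter (0.0124), with at least 1 CPM in 3 libraries (0.0436) and without knockout tumor 3 (0.0417). Aurkb, the Aurora kinase of the chromosomal passenger complex, was at 65.6 ± 3.23 and 75.4 ± 9.39 CPM. The spindle checkpoint genes Bub1 (86.2 ± 6.24 and 101 ± 6.54 CPM) and Bub1b (95.2 ± 6.53 and 114 ± 12.9 CPM) had fold changes of 0.23 and 0.26, without overlap for Bub1. Plk1, a kinase of mitotic entry and the highest of the 5 per length, was at 59.3, 68.3 and 64.9 CPM in control tumors and at 72.3, 69.6 and 56.3 CPM in knockout tumors. The control tumors of Plk1 lay inside the knockout range (0.04 ± 0.11).

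**Figure D2:**
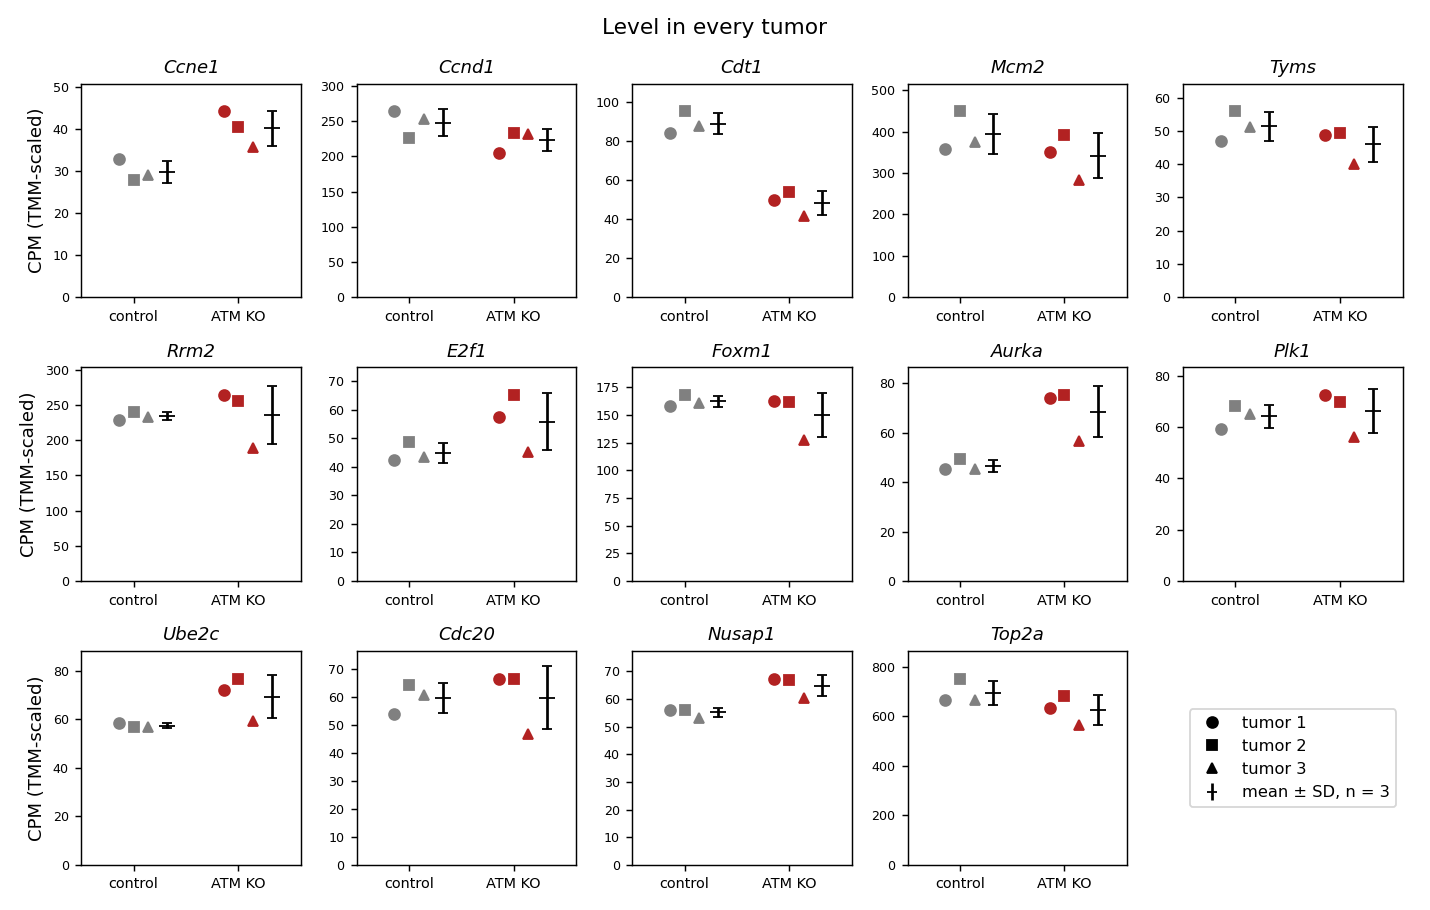
TMM-scaled CPM (y axis, from 0) in control (grey) and knockout (red) tumors for the gene with the smallest p and the gene with the highest level per length of each role group. Symbols mark the tumor number, and black bars give the mean ± SD of 3 tumors. Cdt1 separates the groups most, and knockout tumor 3 is the lowest knockout tumor for every gene shown except Ccnd1.

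Of the 9 genes of anaphase and of the spindle, 4 had fold changes above 0 and 5 below, and none passed the edgeR test (3 higher and 1 lower by unadjusted p, 1 higher by DESeq2, none by limma-voom). Ube2c, the ubiquitin-conjugating enzyme of the anaphase-promoting complex, was at 58.5, 56.9 and 56.8 CPM in control tumors and at 72.1, 76.6 and 59.5 CPM in knockout tumors. Its groups did not overlap (0.27 ± 0.10, adjusted p = 0.172). Exons of Ube2c overlap those of the muscle gene Tnnc2 on the other strand, which was at 0.885, 3.70 and 236 CPM in control tumors and at 92.8, 255 and 30.0 CPM in knockout tumors. In knockout tumors Ube2c followed the order of Tnnc2, and in control tumors it did not, being highest where Tnnc2 was lowest. The part of shared reads in the Ube2c values was not tested. Cdc20, the activator of the anaphase-promoting complex, was at 53.7, 64.3 and 60.7 CPM in control tumors and at 66.3, 66.4 and 46.7 CPM in knockout tumors (0.01 ± 0.15). Its control tumors lay inside the knockout range. Birc5, which encodes survivin of the passenger complex, was at 83.8 ± 1.69 and 75.7 ± 11.8 CPM.

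Nusap1, which bundles spindle microtubules, was at 56.1, 56.0 and 53.2 CPM in control tumors and at 67.1, 66.9 and 60.5 CPM in knockout tumors. The groups did not overlap (0.23 ± 0.07, adjusted p = 0.108), and the p ranged from 0.0478, with DESeq2, to 0.313 over the alternatives. Tpx2, which activates Aurora A on the spindle, was at 120 ± 4.40 and 141 ± 13.8 CPM, also without overlap (adjusted p = 0.192 in edgeR). The spindle motor gene Kif11 was at 160 ± 10.4 and 153 ± 9.35 CPM and the kinetochore gene Cenpf at 136 ± 16.4 and 128 ± 10.1 CPM. Top2a, the topoisomerase that untangles replicated DNA, was at 667, 749 and 666 CPM in control tumors and at 632, 683 and 562 CPM in knockout tumors. Its groups overlapped (-0.15 ± 0.10). Mki67, the gene of the proliferation marker Ki-67, was at 511 ± 37.2 and 421 ± 54.1 CPM (-0.28 ± 0.11, adjusted p = 0.204 in edgeR), with an overlap of the groups at knockout tumor 2. The proliferation markers Mki67, Top2a and Pcna thus had fold changes of different signs, and none passed.

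Differences between tumors of one genotype were shared by most of the 37 genes. Knockout tumor 3 was the lowest of the knockout tumors for 35 of 37 genes, where it was lowest for 38.3% of all genes tested. It was also the lowest of all 6 tumors for 24 of 37 genes, against 15.98% of all genes. Control tumor 2 was the highest control tumor for 31 of 37 genes and knockout tumor 2 the highest knockout tumor for 28, where the shares over all genes were 30.2% and 34.2%. The mean over the 37 genes was 6.53, 6.67 and 6.57 log2 CPM in control tumors 1, 2 and 3 and 6.62, 6.698 and 6.36 log2 CPM in knockout tumors 1, 2 and 3. The range within the knockout group was thus wider than the difference of -0.03 between the group means. Melanocyte marker levels were nearly the same in knockout tumors 1, 2 and 3 (20167, 19962 and 20183 CPM). Skeletal muscle (2638, 7292 and 632 CPM), leukocyte (839, 662 and 858 CPM) and erythroid marker levels (8.88 to 455 CPM) differed between them. Their part in the levels of the 37 genes was not tested.

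**Figure D3:**
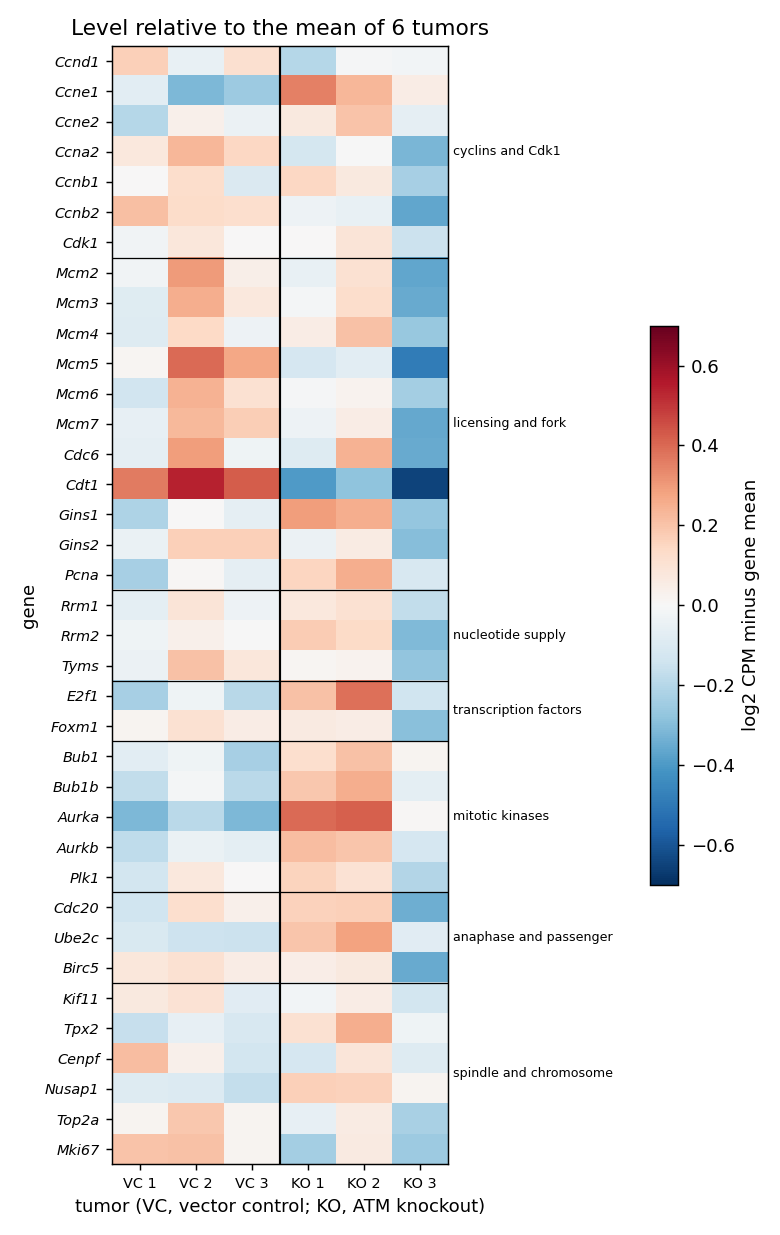
Log2 CPM of the 37 genes (y axis) in each tumor (x axis), minus the mean of the gene over the 6 tumors, with red above and blue below the mean and lines between the 7 role groups. The column of knockout tumor 3 is blue for most genes, and Cdt1 shows the strongest split between control and knockout tumors.

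Fold changes of the genes on chromosomes 2 and 8 had the sign of the other genes there. All 9 genes on chromosome 2 (Gins1, Pcna, E2f1, Bub1, Bub1b, Aurka, Ube2c, Tpx2 and Nusap1) had fold changes above 0, from 0.20 to 0.56. The 1185 other tested genes of chromosome 2 had a median of 0.14, with 65.0% above 0. That median was not even along the chromosome. In the 10 Mb stretches that hold the 9 genes, between 110 and 180 Mb, medians of the other tested genes were 0.19 to 0.27. Between 20 and 30 Mb, where none of the 9 lies, the median was -0.14. All 3 genes on chromosome 8 (Mcm5, Cdt1 and Gins2) had fold changes below 0, and the 823 other tested genes of chromosome 8 had a median of -0.26, with 19.9% above 0. Relative to the mean of the 6 tumors, the median gene of chromosome 8 stood at 0.17, 0.13 and 0.09 log2 CPM in control tumors 1, 2 and 3 and at -0.099, -0.13 and -0.13 in knockout tumors 1, 2 and 3. The same values for chromosome 2 were -0.04, -0.08 and -0.08 in control and 0.07, 0.09 and 0.07 in knockout tumors. Neither chromosome showed an overlap of the groups.

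Of the 37 fold changes, 26 had the sign of the median of the other genes on their chromosome. These were all 12 genes on chromosomes 2 and 8 and 14 of the 25 elsewhere, with none of the 3 on chromosome 1 and 1 of the 4 on chromosome 11. Across the 37 genes, Pearson's r between the fold change and that median was 0.78 and Spearman's rho 0.80, and over the 25 genes off chromosomes 2 and 8 they were 0.42 and 0.46. Both are given as a description, since genes of 1 chromosome share its median and all genes share the 6 libraries. With the chromosome median subtracted, the SD of the 37 values went from 0.27 to 0.19, Cdt1 stood at -0.62, Aurka at 0.41, Mki67 at -0.37 and Ccne1 at 0.34. The median in the 10 Mb around a gene can differ from that of its chromosome. The 10 Mb and chromosome medians were -0.34 and -0.26 for Cdt1 and 0.23 and 0.14 for Aurka. They were 0.06 and 0.09 for Mki67 and 0.07 and 0.09 for Ccne1. The 14 mitotic genes split into 6 on chromosome 2 with a median of 0.25, all above 0, and 8 elsewhere with a median of -0.07, 3 of them above 0. The 14 replication genes, pooled from the licensing, fork and nucleotide groups after their values were seen, differed from the mitotic genes in mean log2 CPM (replication minus mitotic) by -0.05 in control tumors and by -0.30 in knockout tumors. Without the genes on chromosomes 2 and 8 the same subtraction gave 0.05 in control tumors, with the replication genes now above, and -0.0016 in knockout tumors, and the tumors of the groups overlapped. Chromosomes 2 and 8 were also set apart with the values known. Leaving them out removed mitotic genes that were all above 0, so no conclusion is drawn from the change. Whether the level of a whole chromosome has a part in these fold changes was not tested.

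**Figure D4:**
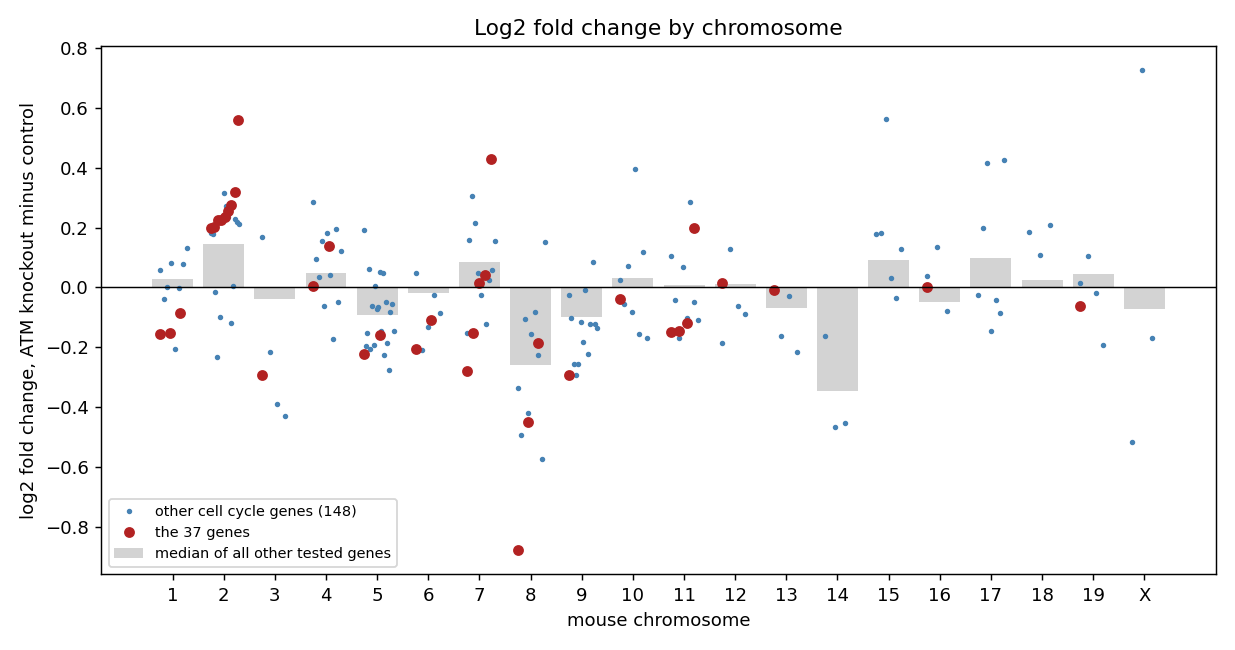
Log2 fold change (y axis) by mouse chromosome (x axis) for the 37 genes (red) and 148 other cell cycle genes (blue), with grey bars for the median of all other tested genes of the chromosome. The 9 red points on chromosome 2 lie above 0 and the 3 on chromosome 8 below it, on the side of the grey bar.

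A wider list of 150 further cell cycle and replication genes, of which 148 were tested, gave 1 higher and 7 lower genes, or 5.41% called beside 4.96% of all genes. Cenpi, a kinetochore gene on chromosome X, rose from 18.0 ± 0.652 to 29.7 ± 4.39 CPM (0.73 ± 0.12, adjusted p = 0.0332). Of the 7 that fell, 4 lie on chromosome 8. E2f4, a repressive member of the E2F family, fell from 63.4 ± 0.990 to 45.1 ± 3.44 CPM (-0.49 ± 0.07, adjusted p = 0.0272), and its partner Rbl2, the pocket protein p130, from 100 ± 3.03 to 79.6 ± 0.364 CPM (-0.33). Orc6, a subunit of the origin recognition complex, fell by 0.42 on the log2 scale, and Cdc16, a subunit of the anaphase-promoting complex, by 0.57. The other 3 were Pola1 on chromosome X, the catalytic subunit of DNA polymerase alpha, from 98.3 ± 10.3 to 68.7 ± 4.98 CPM (-0.52), Smc4 on chromosome 3, a condensin subunit, from 340.3 ± 22.4 to 253 ± 2.08 CPM (-0.43), and Dlgap5 on chromosome 14, a spindle gene, from 55.9 ± 5.27 to 40.8 ± 2.52 CPM (-0.45). On chromosome 14 the other tested genes had a median of -0.35. Medians over the tested genes outside the 37 were also taken in the 10 Mb stretch of each called gene. They were 0.53 for Cenpi, -0.24 for Pola1, -0.14 for Smc4 and -0.35 for Dlgap5. On chromosome 8 they were -0.29 for E2f4, -0.24 for Rbl2, -0.29 for Orc6 and -0.04 for Cdc16. The part of such neighborhoods in these calls was not tested. The wider list had no call without control tumor 2, knockout tumor 1 or knockout tumor 2, 1 lower without control tumor 3, and 2 higher and 0 lower without knockout tumor 3. Of the inhibitors of cyclin-dependent kinases, none of 5 tested passed in edgeR (1 higher by unadjusted p, none by DESeq2 or limma-voom). Cdkn1a, which encodes p21 and is named here after its values were seen, was at 164, 152 and 139 CPM in control tumors and at 174, 175 and 258 CPM in knockout tumors (0.42 ± 0.17, adjusted p = 0.213). It was highest in knockout tumor 3, the tumor with the lowest levels of most of the 37 genes, and a link was not tested. Other inhibitors differed. Cdkn2c was lowest in that tumor, at 45.9, 43.5 and 48.1 CPM in control and 68.6, 57.9 and 41.1 CPM in knockout tumors. Cdkn1b was at 263, 217 and 208 CPM in control and 178, 173 and 244 CPM in knockout tumors. Cdkn2d was at 38.0, 31.7 and 31.9 CPM in control and 33.5, 32.2 and 34.1 CPM in knockout tumors. Cdkn2a and Cdkn2b had at most 10 and 16 counts in any tumor and were not tested.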

How the data were processed

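Total RNA of 6 tumors, 3 per genotype, was sequenced. The deposited values are raw counts per gene, 1 library per file, from the authors. Trim Galore, cutadapt, STAR, SAMtools and HTSeq, with GRCm38 and mm10 as builds, are named per the submitters' processing notes, without roles or versions. How strand was handled is not given in those notes or the labels, so for 8 of the 37 genes (Ccna2, Ccnd1, Ccne2, Cdc20, Gins2, Mcm7, Nusap1 and Ube2c) reads shared with an expressed gene on the other strand may not have been told apart. All 55536 identifiers matched GENCODE M21 (GRCm38), which gave coordinates and exon lengths. Exon length is the merged length of all annotated exons of a gene, so every ranking of genes by level per length depends on the annotated transcripts. Reads in no gene were 16.7% to 18.2% and reads in several genes 1.21% to 1.38% of those listed. They were left out, and the counters for unaligned and multiply aligned reads are listed at 0.

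Genes were filtered with filterByExpr (minimum count 10, minimum total 15), scaled by TMM (factors 0.959 to 1.03) and tested with edgeR 4.0.16 (glmQLFit, robust, genotype as the term). The SE is the fold change divided by the root of F, and 95% intervals use the test's degrees of freedom. DESeq2 1.42.0 and limma 3.58.1 served as alternatives, with R 4.3.3. The code was tested on simulated data. Libraries within a group differed by more than counting error (chi-square over its degrees of freedom, 21.2 to 80.0). Mean log2 CPM used a prior count of 2.

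Values in every tumor are given for the called gene and, per role group, for the gene with the smallest p and the one with the highest level per length. Mcm5, Ccna2, Ccnb2, Mki67 and the others are given by range, mean or fold change. Of the wider list, called genes are named. The genes, lists and rules were chosen with earlier results of these data known.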

Additional observations from a re-analysis of the deposited data

How the results depend on the processing

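With another scaling, filter, tool or dispersion estimate, or without tissue marker genes, the call of Cdt1 held. DESeq2 gave no adjusted p for 1536 genes. The call of Cdt1 ended at a threshold of 0.01, where 0 of the 37 genes were lower, as 0 were in the replicate block. Higher genes among the 37 numbered 1 with library size as the only scaling, 2 with no filter, 1 with at least 1 CPM in 3 libraries, 3 with DESeq2 and 2 at a threshold of 0.10, and DESeq2 called 2 lower. Leaving out 1 tumor gave 0 to 1 higher and 0 to 1 lower. Of the wider list, DESeq2 called 3 higher and 11 lower, a threshold of 0.01 gave 0 and 0, and one of 0.10 gave 3 higher. Leaving out 1 tumor gave 0 to 2 higher and 0 to 6 lower. Over all genes, DESeq2 called 920 higher and 1150 lower, thresholds of 0.01 and 0.10 gave 26 and 22 and 783 and 916, and leaving out 1 tumor gave 0 to 587 higher and 2 to 622 lower. The full fit called 347 higher and 431 lower. The cause of the range was not tested. The fits without 1 tumor applied the filter again and tested 15984 to 16124 genes. Calls over all genes were 587 higher and 622 lower without control tumor 1, 19 and 9 without control tumor 2, 55 and 55 without control tumor 3, 0 and 2 without knockout tumor 1, 22 and 20 without knockout tumor 2, and 97 and 99 without knockout tumor 3.

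The replicate block with tumor number called 0 genes higher and 0 lower over all genes, over the 37 and over the wider list. The labels do not say that numbers pair tumors, and deviations of same-numbered tumors correlated at 0.0437, -0.272 and -0.42 for numbers 1, 2 and 3. Pairs with different numbers correlated at -0.234 to 0.439. Knockout tumor 1 correlated best with control tumor 1, while knockout tumors 2 and 3 correlated least with the control tumor of their own number.

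Signs turned for 11 of the 37 genes, all with fold changes within 0.12 of 0 and none called. Ccnb1 became 0.042 with library size only, 0.0082 with no filter and 0.023 with at least 1 CPM in 3 libraries, and Cdk1 0.010 with library size only. With limma-voom and in the replicate block, Mcm4 became -0.0078 and -0.0079, Rrm2 -0.0015 and -0.0022, and Cdc20 -0.012 and -0.0089. Leaving out 1 tumor gave ranges of -0.084 to 0.103 for Ccnb1, -0.095 to 0.030 for Cdk1, -0.107 to 0.127 for Mcm4, -0.29 to 0.032 for Cdc6, -0.038 to 0.102 for Rrm1, -0.074 to 0.158 for Rrm2, -0.169 to 0.0022 for Foxm1, -0.028 to 0.151 for Plk1, -0.076 to 0.161 for Cdc20, -0.105 to 0.0029 for Kif11 and -0.154 to 0.0089 for Cenpf. The other 26 kept their sign under all 17 alternatives.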
